A study of Mus musculus with 6 samples.

Results

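The genes described here encode the subunits of Mediator and Integrator, measured by RNA sequencing in islets isolated from the pancreas of mice aged 6 weeks. They were chosen by symbol alone, as every gene named Med or Ints with a number (and, for Med, an optional l), which gave 44 of the 53670 genes in the count table, 30 of Mediator and 14 of Integrator. The 3 wild-type (WT) libraries came from mice labelled Paupar +/+ and the 3 knockout (KO) libraries from mice labelled Paupar -/-, where Paupar is a long noncoding RNA gene. The sources used here do not state the strain, the construction of the allele or whether each library came from a separate animal, so p-values measure the spread between these libraries, which may be technical.

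Libraries held 25733194 to 27285009 gene counts. As a check of the labels, Paupar counts were 177, 252 and 111 in the WT libraries and 4, 0 and 4 in the KO libraries (values always in the order of replicates 1, 2 and 3). The 5 islet hormone genes (Ins1, Ins2, Gcg, Sst and Ppy) took 23.7 to 26.5% of counts in WT and 27.9 to 28.6% in KO. A list of 15 acinar genes took 2.67 to 8.07% in WT, highest in WT replicate 1, and 1.90 to 4.82% in KO. Endothelial (10 genes), macrophage (9), stellate or fibroblast (8) and Schwann cell or neuron (7) lists each took at most 0.0586% in any library. The endothelial share was 0.0409 to 0.0545% in WT and 0.0573 to 0.0586% in KO, and none of the 5 non-islet lists had a gene at 0 in all libraries. The X-inactivation transcript Xist had at most 6 counts in the WT libraries, 0 in KO replicate 1, and 1120 and 862 in KO replicates 2 and 3. The Y-linked gene Ddx3y had 1715, 1316 and 1830 counts in WT, 1693 in KO replicate 1, and 2 and 0 in KO replicates 2 and 3. By these genes the WT libraries and KO replicate 1 look male and KO replicates 2 and 3 look female, so sex is partly confounded with genotype. The part of cell composition and sex in the results below was not tested, and in whole islets fewer cells of a type cannot be told apart from less RNA per cell.

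Mediator is a large coactivator that carries signals from DNA-bound transcription factors to RNA polymerase II at promoters. Its head and middle modules contact the polymerase, its tail contacts many activators, and a detachable kinase module, built around cyclin C and Cdk8 or Cdk19, modulates that contact. Integrator binds polymerase that has paused early in a gene. It cleaves the nascent RNA with its endonuclease subunit and brings a PP2A phosphatase that counteracts the kinases of elongation, and it forms the 3' ends of small nuclear RNAs.

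Levels of both complexes in KO islets lay close to those in WT islets. No member passed edgeR's quasi-likelihood test at a Benjamini-Hochberg adjusted p below 0.05 over all 15915 tested genes, of which 0.17% were called lower and 0.0% higher. DESeq2, run as an alternative, called 3 members, with Med1 and Med13l lower and Med28 higher in KO, where it called 4.1% of genes with an adjusted p lower and 1.96% higher (6.06% in all). At an adjusted p below 0.1 edgeR called 0 members, beside 0.785% of all genes lower and 0.044% higher (0.829% in all). Limma-voom called 0 members and 0 genes in all. At an unadjusted p below 0.05 edgeR held 6 members lower (Med1, Med13l, Med25, Med15, Ints7 and Med13) and 1 higher (Med28), beside 9.38% of all genes lower and 6.99% higher. Of the 43 tested members, 10 were below every WT library in every KO library and 7 were above, which is 23.3% and 16.3%, beside 12.1% and 11.3% of all tested genes (23.4% in all).

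The complexes differed little as wholes. The median log2 fold change of KO over WT (negative when lower in KO) was 0.00 over the 29 tested Mediator members, with 15 negative and 14 positive, and -0.09 over the 14 Integrator members, with 11 negative and 3 positive. It was 0.00 over all tested genes, of which 49.7% were negative. Mediator members ranged from -0.48 (Med1) to 0.25 (Med28), and Integrator members ranged from -0.32 (Ints1) to 0.19 (Ints12). The Integrator median was -0.03 without WT replicate 1, and the gap between the medians, -0.09 with all libraries, ran from -0.18 without WT replicate 3 to -0.02 without WT replicate 1.

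**Figure D1:**
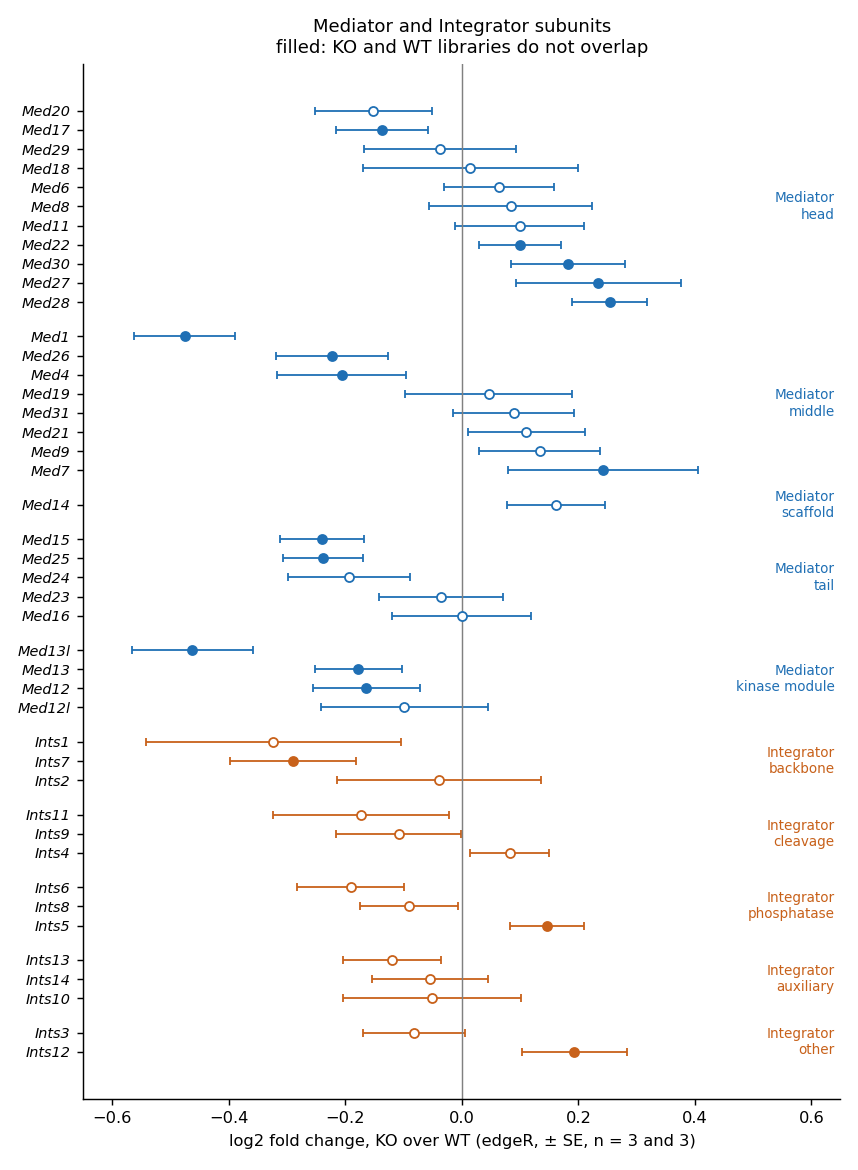
Log2 fold change of KO over WT for the 43 tested members, grouped by module, with standard errors from edgeR; filled points mark members whose 3 KO libraries all lay on the same side of the 3 WT libraries. Without length and GC offsets, kinase module and tail members lie at or left of 0, and 8 of 11 head members lie right of it.

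Summed over members, Mediator transcripts stood at 891, 877 and 854 CPM (read counts scaled to library size, with TMM factors) in WT and at 802, 837 and 857 CPM in KO. KO replicate 3 lay within the WT range. Integrator transcripts summed to 537, 498 and 469 CPM in WT and to 472, 469.6 and 477 CPM in KO, so the KO libraries sat together near the lowest WT library. The Integrator sum was 57.3 ± 2.69% of the Mediator sum in WT and 56.9 ± 1.72% in KO (SD, n = 3).

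Within Mediator the modules, as subunits were grouped here, stood on different sides of WT. Another grouping of the subunits would change the counts, medians and sums that follow. All 4 kinase module members and all 5 tail members (Med16 at only -0.000289) had negative log2 fold changes, with medians of -0.17 and -0.19, while 8 of 11 head members had positive ones, with a median of 0.08. The kinase module summed to 243, 228 and 219.7 CPM in WT and to 188, 202 and 204 CPM in KO, with no overlap. The head summed to 229, 219 and 224 CPM in WT and to 239, 244 and 245 CPM in KO, again with no overlap and in the other direction. Tail sums also did not overlap, at 234 to 260.1 CPM in WT and 209 to 231 CPM in KO. The middle module, at 126 to 132 CPM in WT and 119 to 122 CPM in KO, also without overlap, held members on both sides, with 3 negative and 5 positive. These sums weight members by abundance and carry no test. Med28 held 63.6 CPM of the mean head sum of 224 CPM in WT, and 75.9 of 243 CPM in KO. Med1 held 39.7 CPM of the mean middle sum of 129 CPM in WT, and 28.5 of 120 CPM in KO, so its fall exceeded that of the whole sum.

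Much of this module pattern went when offsets for exonic length and GC content were added to the fit. The kinase module median became -0.04, with 2 members negative and 2 positive, and the tail median became -0.02, with 3 negative and 2 positive (Med16 at 0.17 and Med23 at 0.02). The head median was 0.07 with offsets, with 4 of its 10 annotated members negative and 6 positive. The middle median turned from 0.07 to -0.04, with 5 negative and 3 positive. In Integrator the backbone median, over 3 members, moved from -0.29 to -0.06. Ints7 itself was at -0.24 with offsets, beside -0.06 for Ints1 and 0.06 for Ints2.

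**Figure D2:**
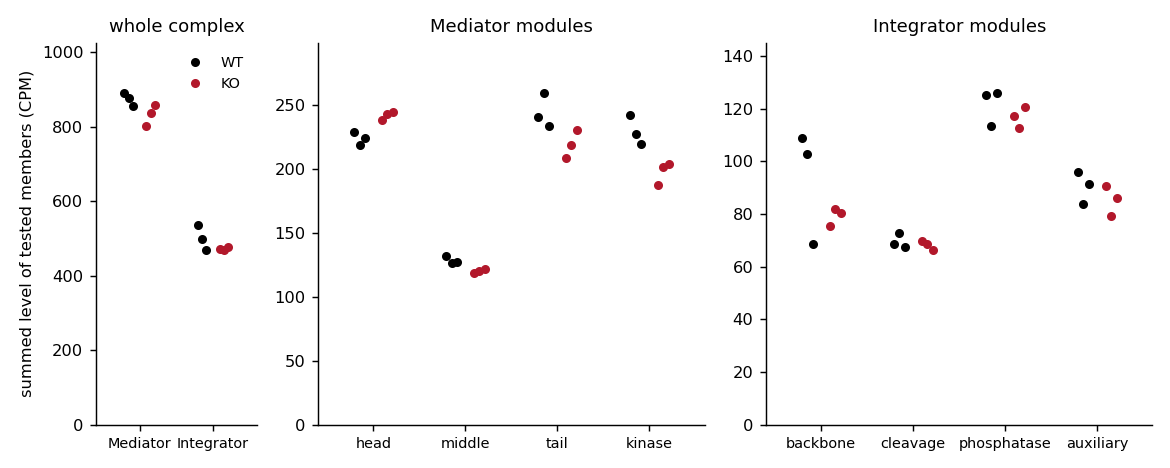
Summed level of the tested members, in CPM, of each complex (left), of the Mediator modules (middle) and of the Integrator modules (right); each point is 1 library, black for WT and red for KO. The Mediator head lies higher in KO and the kinase module lower, while each of the Integrator modules shown overlaps between genotypes.

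Med1, a middle module subunit that nuclear hormone receptors bind, had the lowest fold change of all members (chromosome 11, 98013468 to 98054607 in mm9). It stood at 42.6, 38.6 and 37.9 CPM in WT and at 30.9, 26.6 and 28.1 CPM in KO. Every KO library lay below every WT library by a wide margin, and the mean level in KO was 28.5 ± 2.15 CPM against 39.7 ± 2.54 CPM in WT (SD, n = 3). This was 0.719 of the WT level, a log2 fold change of -0.48 (SE 0.09, edgeR adjusted p = 0.106), which did not pass. DESeq2 gave -0.47 with an adjusted p of 0.00153. Over all alternatives the value ran from -0.54 to -0.36, and it was -0.36 both with KO replicate 1 alone against WT and with offsets for exonic length and GC content.

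Other middle module members were less far from WT. Med26, which recruits elongation factors to polymerase, was at 11.9, 11.7 and 12.9 CPM in WT and at 9.97, 10.7 and 10.6 CPM in KO. The groups did not overlap, at a log2 fold change of -0.22 (SE 0.10, edgeR adjusted p = 0.314), which was -0.12 with offsets. Med4 was also lower in every KO library, at 8.48 to 9.36 CPM against 9.64 to 11.19 CPM in WT. On the other side, Med7 was at 8.04, 5.73 and 8.23 CPM in WT and at 8.68, 8.90 and 8.45 CPM in KO. Its log2 fold change of 0.24 (SE 0.16, edgeR adjusted p = 0.513) was 0.09 without WT replicate 2 and 0.14 with offsets. Med9, Med19, Med21 and Med31 had overlapping groups, with log2 fold changes of 0.05 to 0.13.

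Med13l and Med13, paralogous subunits that tether the kinase module to the rest of Mediator, were both lower in every KO library. Med13l (chromosome 5, 119010728 to 119215444) was at 42.4, 45.4 and 39.1 CPM in WT and at 30.3, 27.5 and 34.4 CPM in KO. That is 0.726 of the WT level, a log2 fold change of -0.46 (SE 0.10, edgeR adjusted p = 0.141, and adjusted p = 0.0114 in DESeq2). With offsets for length and GC content it was -0.27. Med13 was at 124, 111 and 117 CPM in WT and at 96.9, 110.3 and 104 CPM in KO, so KO replicate 2 came within about 1 CPM of WT replicate 2. Its log2 fold change was -0.18 (SE 0.07, edgeR adjusted p = 0.302) and -0.09 with offsets.

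Med12, which activates the kinase of the module and lies on the X chromosome (98469369 to 98492804), was at 59.9, 50.6 and 48.5 CPM in WT and at 46.3, 47.5 and 48.2 CPM in KO. The groups did not overlap, but KO replicate 3 and WT replicate 3 differed by less than 1 CPM, and the log2 fold change of -0.16 (SE 0.09, edgeR adjusted p = 0.431) became 0.00 with the offsets. Leaving out WT replicate 1 gave -0.06. Its paralog Med12l was at 17.0, 20.5 and 14.7 CPM in WT and at 14.5, 16.9 and 17.3 CPM in KO, with overlapping groups (-0.10, SE 0.14, edgeR adjusted p = 0.777). The value was 0.04 with offsets or without WT replicate 2, -0.20 without WT replicate 3 and -0.02 without KO replicate 1. Exons of Med12l overlap those of Igsf10 on the other strand by 1676 bp in the mm9 annotation. The sources used here do not say whether the authors' counting used strand, and without strand the reads of overlapping exons cannot be told apart. Igsf10 had 22 to 44 counts per library. Opposite-strand overlaps were also found for Med7, Med10, Med13, Med19, Med21, Med27, Med31, Ints2, Ints6, Ints8, Ints11 and Ints12, by 19 to 830 bp, and same-strand ones for Med12 (749 bp with Nlgn3) and Med24 (81 bp with a snoRNA). The counts of these members are uncertain to that extent. The neighbours of Med19 (Zdhhc5, 2327 to 2491 counts, and Tmx2, 749 to 894) and Med21 (Tm7sf3, 1386 to 1855) had more counts than the members themselves.

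The kinase module's partners outside the naming rule were mixed. Cdk19, one of the alternative kinases, was at 17.6, 19.0 and 14.7 CPM in WT and at 12.6, 13.7 and 14.3 CPM in KO, below WT in every library (log2 fold change -0.34, SE 0.12, edgeR adjusted p = 0.251). Cdk8, the other kinase, was at 60.7 to 72.9 CPM in WT and 60.0 to 74.1 CPM in KO (0.03, SE 0.11). Cyclin C, from Ccnc, was at 26.03 to 34.8 CPM in WT and 36.0 to 37.0 CPM in KO (0.22, SE 0.12, edgeR adjusted p = 0.397). None of the 3 passed in edgeR or DESeq2.

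In the tail, Med15, which binds activators such as the sterol-responsive SREBP factors, was at 44.5, 48.7 and 46.8 CPM in WT and at 40.6, 37.2 and 40.7 CPM in KO. Its groups did not overlap (log2 fold change -0.24, SE 0.07, edgeR adjusted p = 0.203). Med25, another activator-binding subunit, was at 76.6, 81.2 and 74.0 CPM in WT and at 64.8, 62.7 and 68.9 CPM in KO, again without overlap (-0.24, SE 0.07, edgeR adjusted p = 0.194). Offsets for length and GC content brought these to -0.14 and -0.11. The tail members Med24 (-0.19, SE 0.10), Med23 (-0.04, SE 0.11) and Med16 (0.00, SE 0.12) had overlapping groups. Med14, the scaffold that joins head, middle and tail and the second X-linked member (12252495 to 12339199), was at 46.0, 43.5 and 48.2 CPM in WT and at 47.2, 51.3 and 55.6 CPM in KO. KO replicates 2 and 3, the libraries with Xist, were above WT and KO replicate 1 was not (0.16, SE 0.08, edgeR adjusted p = 0.395). The value was 0.10 without KO replicate 3 and 0.04 with KO replicate 1 alone against WT.

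Med28, grouped here with the head, had the highest fold change of all members (chromosome 5, 45911460 to 45920515). It was at 64.3, 62.2 and 64.3 CPM in WT and at 71.6, 78.3 and 77.7 CPM in KO. The WT libraries lay within about 2 CPM of each other and every KO library was above them, for 1.19 times the WT level. The log2 fold change of 0.25 (SE 0.06) had an adjusted p of 0.165 in edgeR and 0.0376 in DESeq2, and ran from 0.17 to 0.29 over all alternatives. Med30 was at 12.7, 12.8 and 11.7 CPM in WT and at 15.2, 13.3 and 13.8 CPM in KO (0.18, SE 0.10, edgeR adjusted p = 0.408), and its value was 0.06 with offsets. Med27 was at 8.87, 8.59 and 6.82 CPM in WT and at 9.10, 9.09 and 10.4 CPM in KO (0.23, SE 0.14, edgeR adjusted p = 0.463), and its value was 0.14 without WT replicate 3. Both, like Med22 (52.1 to 59.4 CPM in WT and 60.0 to 60.8 CPM in KO), were higher in every KO library. Med17, at the centre of the head, went the other way, at 18.0 to 18.9 CPM in WT and 16.5 to 17.5 CPM in KO (-0.14, SE 0.08, edgeR adjusted p = 0.442). The other 6 head members had overlapping groups and log2 fold changes of -0.15 to 0.10.

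**Figure D3:**
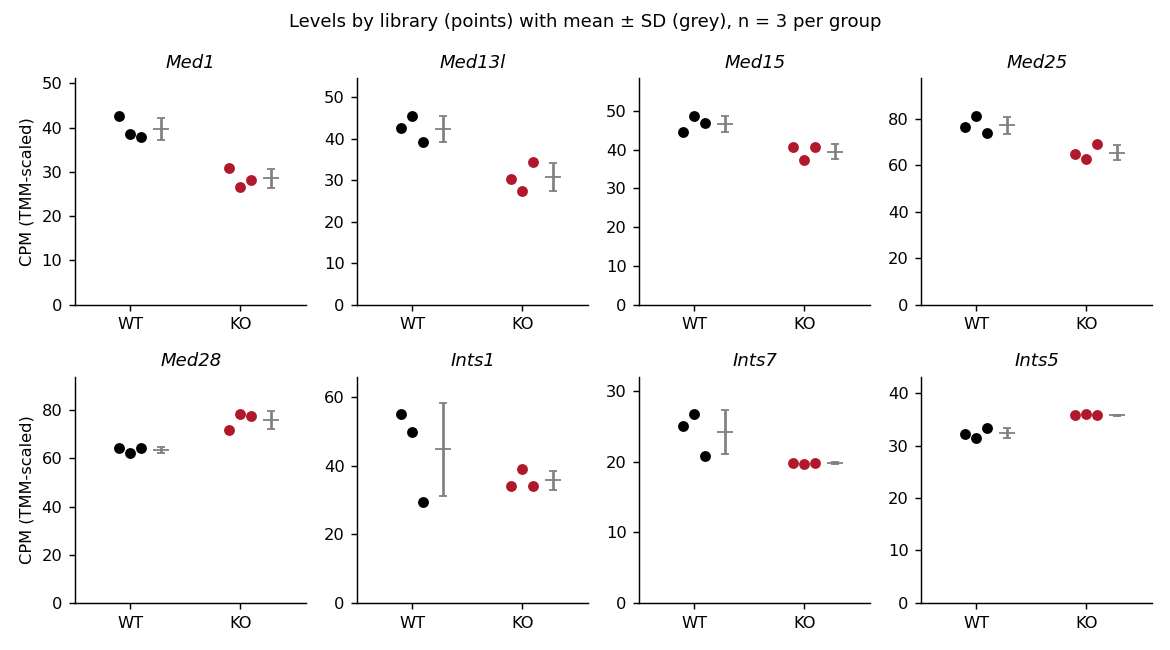
Level of 8 members in each library (points, CPM scaled by TMM factors, axes from 0) with the mean and SD of each genotype in grey. Med1 and Med13l lie lower and Med28 higher in each KO library, whereas Ints1 spreads from 29.5 to 55.0 CPM among the WT libraries.

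Med10, a conserved middle module subunit, is listed at 0 in all 6 libraries and was not tested. In the mm9 annotation (GENCODE vM1) its exons span 862 bp (chromosome 13, 69948760 to 69954972), and 830 bp of them overlap exons of Gm17282, a long noncoding RNA gene on the other strand. The sources used here do not name the annotation that the authors counted with.

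The 250 bases upstream of a RefSeq start (build GRCm38.p6) are shown for the 3 members that DESeq2 called. Whether each window lies at the promoter used in islets was not tested. Capitals mark letters that match a searched motif on either strand.
Med1 (chr11:98192907-98193156, minus strand): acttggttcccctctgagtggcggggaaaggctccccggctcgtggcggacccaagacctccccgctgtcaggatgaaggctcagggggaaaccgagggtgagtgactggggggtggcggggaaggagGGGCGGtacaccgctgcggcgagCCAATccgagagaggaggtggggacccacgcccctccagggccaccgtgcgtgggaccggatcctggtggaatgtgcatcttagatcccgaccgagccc
Med13l (chr5:118560469-118560718, plus strand): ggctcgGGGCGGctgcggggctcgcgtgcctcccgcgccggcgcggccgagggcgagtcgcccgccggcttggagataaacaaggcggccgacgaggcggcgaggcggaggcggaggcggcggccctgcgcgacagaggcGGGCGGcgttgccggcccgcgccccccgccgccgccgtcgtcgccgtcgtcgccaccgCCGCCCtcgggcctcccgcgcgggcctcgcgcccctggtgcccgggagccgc
Med28 (chr5:45519979-45520228, plus strand): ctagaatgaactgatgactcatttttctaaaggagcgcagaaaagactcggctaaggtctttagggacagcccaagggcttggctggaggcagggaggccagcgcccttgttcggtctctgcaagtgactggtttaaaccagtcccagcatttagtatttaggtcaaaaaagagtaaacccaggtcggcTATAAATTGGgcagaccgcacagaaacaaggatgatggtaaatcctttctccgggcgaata
The Med13l window held 3 matches to GGGCGG, the core of SP/KLF sites. The Med1 window held 1 match to GGGCGG and 1 to ATTGG, the NF-Y core. Both lie after an ATG in that window (atgaaggctcagggggaaaccgag). The Med1 window may thus lie inside the gene and is not taken here as its promoter. In the Med28 window a TATAAA and an ATTGG overlapped by 1 base. Windows were found for 36 members, 41 windows in all. GGGCGG was in 63.4% of them, against 32.7% of all 32851 promoter windows, and ATTGG was in 48.8% against 33.8%. TATAAA was in 7.32% against 12.4%, and CCGGAAG (ETS) in 19.5% against 6.91%. The NRF1 motif was in 14.6% against 3.74%, TGACGTCA (CRE) in 4.88% against 1.55%, and AAGATGGC (YY1) in 2.44% against 1.56%. These are letter matches in a fixed window and were not tested.

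In Integrator, the backbone subunits Ints1, Ints2 and Ints7 varied most between WT libraries. Ints1 (chromosome 5, 140227236 to 140251632) was at 55.0, 50.01 and 29.5 CPM in WT and at 34.1, 39.1 and 34.2 CPM in KO. WT replicate 3 was thus the lowest of the 6 libraries and WT replicates 1 and 2 the highest, and the log2 fold change of -0.32 (SE 0.22, edgeR adjusted p = 0.513) ran from -0.54 without WT replicate 3 to -0.14 without WT replicate 1. With length and GC offsets it was -0.06. Ints2 followed the same order in WT, at 28.9, 25.9 and 18.3 CPM, beside 21.5, 23.1 and 26.4 CPM in KO (-0.04, SE 0.18, edgeR adjusted p = 0.936). Leaving out WT replicate 1 gave 0.11 and leaving out WT replicate 3 gave -0.20. Ints7 (chromosome 1, 193399642 to 193446551) was at 25.1, 26.7 and 20.8 CPM in WT and at 19.8, 19.6 and 19.9 CPM in KO. It was the single Integrator member below WT in every KO library, and the KO libraries were almost equal (-0.29, SE 0.11, edgeR adjusted p = 0.265).

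The cleavage module, which cuts nascent RNA, showed little difference. Ints11, the endonuclease, was at 17.6, 18.5 and 16.5 CPM in WT and at 16.8, 17.7 and 12.1 CPM in KO, where KO replicate 3 alone was low (log2 fold change -0.17, SE 0.15, edgeR adjusted p = 0.614). Without KO replicate 3 the value was -0.02, and without KO replicate 2 it was -0.28. Exons of Ints11 overlap those of Pusl1 on the other strand by 697 bp, and Pusl1 had 51 to 86 counts per library. Ints9, the catalytically inactive relative that pairs with Ints11, was at 18.5, 20.9 and 16.4 CPM in WT and at 17.6, 17.1 and 17.1 CPM in KO (-0.11, SE 0.11, edgeR adjusted p = 0.660). It was -0.02 without WT replicate 2, -0.18 without WT replicate 3 and -0.04 with offsets. Ints4, which holds both, was at 32.6, 33.4 and 34.4 CPM in WT and at 35.4, 34.0 and 37.0 CPM in KO, with overlapping groups (0.08, SE 0.07, edgeR adjusted p = 0.598, and 0.05 without KO replicate 3).

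Among the subunits grouped here with the phosphatase, Ints6 was at 45.2, 39.4 and 44.1 CPM in WT and at 35.4, 36.1 and 41.3 CPM in KO (log2 fold change -0.19, SE 0.09, edgeR adjusted p = 0.361). Ints5 (chromosome 19, 8967477 to 8972380) went the other way, at 32.1, 31.5 and 33.4 CPM in WT and at 35.7, 35.9 and 35.8 CPM in KO. Its KO libraries were nearly identical and all above WT (0.15, SE 0.06, edgeR adjusted p = 0.319, and 0.24 with offsets). Ints8, whose groups overlapped, was at -0.09 (SE 0.08). Ints12, a small subunit with a PHD finger, was the other member above WT in every KO library, at 17.9, 18.2 and 19.3 CPM in WT and 19.4, 22.6 and 21.4 CPM in KO (0.19, SE 0.09, edgeR adjusted p = 0.350). With KO replicate 1 alone against WT the Ints12 value was 0.07.

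The auxiliary subunits Ints10, Ints13 and Ints14 had overlapping groups. Ints13 was at 38.9, 34.8 and 40.9 CPM in WT and at 36.0, 33.5 and 35.9 CPM in KO (log2 fold change -0.12, SE 0.08, edgeR adjusted p = 0.523). It was -0.18 without WT replicate 2 and -0.06 without WT replicate 3. Ints10 was at 32.8, 25.8 and 30.5 CPM in WT and at 33.4, 23.1 and 29.3 CPM in KO, where replicate 2 was the lowest in both genotypes (-0.05, SE 0.15, edgeR adjusted p = 0.900). Its value ran from -0.18 without KO replicate 1 to 0.08 without KO replicate 2. Ints14 was at -0.06 (SE 0.10). Ints3, which also belongs to a complex that binds single-stranded DNA, was at -0.08 (SE 0.09).

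**Figure D4:**
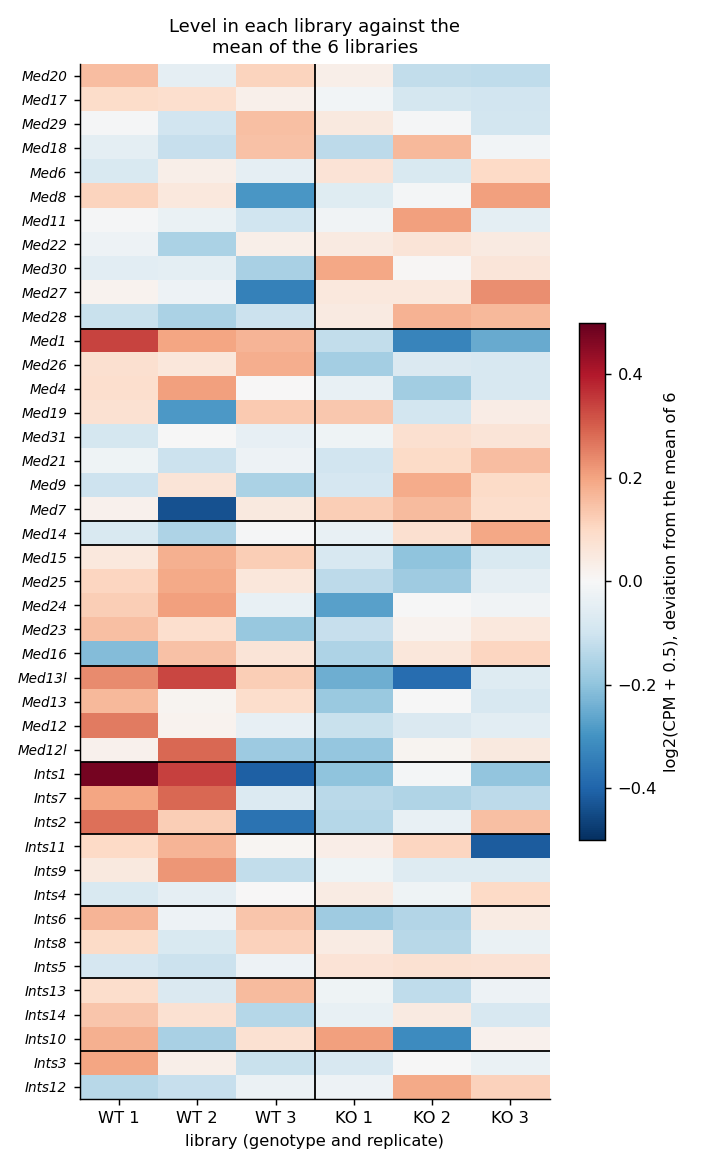
Each tested member's log2 level in each library relative to its mean over the 6 libraries, with modules in the order head, middle, scaffold, tail and kinase module of Mediator and then backbone, cleavage, phosphatase, auxiliary and other subunits of Integrator (red above the mean, blue below). Med1 and Med13l are red in the WT columns and blue in the KO columns, and Ints1 and Ints2 are blue in WT 3.

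Ints6l, a paralog of Ints6 whose symbol falls outside the naming rule, stood further from WT than any member. It was at 25.2, 28.6 and 22.2 CPM in WT and at 14.2, 15.7 and 15.7 CPM in KO, which is 0.600 of the WT level. All 3 KO libraries lay below all WT libraries. The gene is X-linked, and the part of sex in its difference was not tested. Its log2 fold change of -0.74 (SE 0.11) had an adjusted p of 0.084 in edgeR and 5.94e-05 in DESeq2. The other 7 tested Integrator partners, among them the PP2A subunit genes Ppp2ca (0.10) and Ppp2r1a (0.06), lay between -0.21 and 0.30 and none passed in either test.

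Divided by exonic length, which allows levels of different genes to be compared, Med25 was the most abundant Mediator transcript in WT at 30.4 ± 1.43 CPM per kb and Ints3 the most abundant Integrator transcript at 24.2 ± 2.61 CPM per kb (SD, n = 3). In Mediator, Med22 (15.6 ± 1.04) and Med30 (14.2 ± 0.654) came next in CPM per kb, within their spread of each other. Ints4 (10.3 ± 0.280), Ints5 (9.83 ± 0.295) and Ints13 (9.63 ± 0.788) followed Ints3, also within their spread. Of the kinase module paralogs, Med13 stood at 10.8 ± 0.560 CPM per kb against 4.54 ± 0.336 for Med13l, and Med12 at 6.88 ± 0.785 against 1.67 ± 0.283 for Med12l. The order within both pairs was the same in KO, at 9.58 and 3.29 CPM per kb for Med13 and Med13l and 6.14 and 1.56 CPM per kb for Med12 and Med12l. Med12l had the lowest level per kb of the 28 tested Mediator members with a length, followed by Med18 at 1.73 ± 0.192.

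Exonic length moved with the fold changes in Mediator as over all genes, and exonic GC content did so in both complexes. The Spearman correlation of log2 fold change with exonic length was -0.34 over 28 Mediator members, 0.05 over 14 Integrator members and -0.23 over 14807 genes, all measured in the same 6 libraries. With exonic GC content it was -0.36 in Mediator, -0.40 in Integrator and -0.19 over all genes. The offsets take length and GC content together, so their separate parts were not tested. Among the 7 Mediator members with exons of at least 6000 bp, 6 were negative, with a median log2 fold change of -0.18, beside -0.10 over the 3006 genes of that length. The exception was Med14. The 8 Mediator members under 2000 bp had a median of 0.08, beside 0.09 over 3408 genes. With smooth offsets for length and GC content the correlation with length was 0.00 in Mediator. The median log2 fold changes were then -0.01 for Mediator, -0.05 for Integrator and 0.03 for all genes. Med1 (-0.36), Med13l (-0.27) and Med28 (0.28) kept their signs under the offsets, while the fold changes of Med6, Med12, Med12l, Med16, Med18, Med19, Med21, Med23, Ints2 and Ints3 changed sign.

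**Figure D5:**
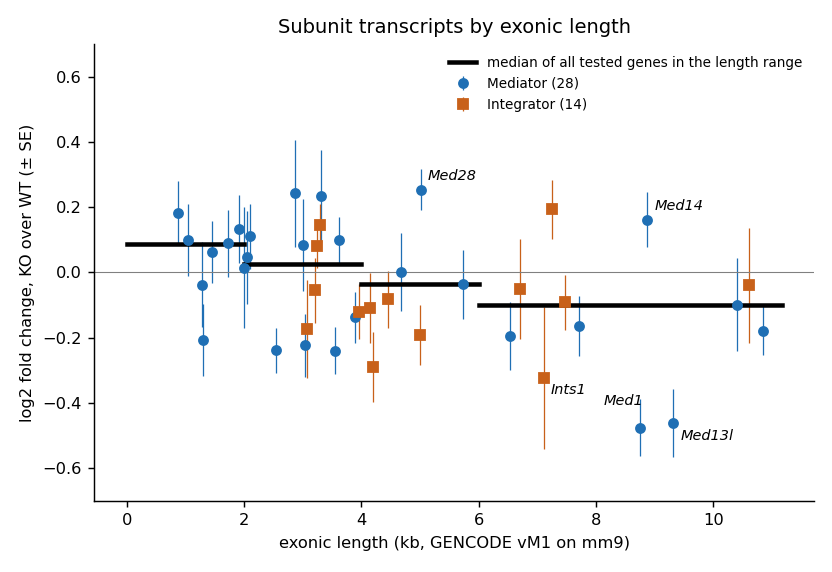
Log2 fold change (with SE) of each annotated member against exonic length in kb, for Mediator (circles) and Integrator (squares); black bars give the median of all tested genes in 4 length ranges, the last open-ended. The bars step down from 0.09 to -0.10, and Med1 and Med13l lie below the bar of their range while Med14 and Med28 lie above theirs.

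Other parts of the polymerase II machinery showed no call in edgeR either. The polymerase II subunit genes had a median exonic length of 1330 bp, over the 12 with a length. The 3408 tested genes under 2000 bp had a median log2 fold change of 0.09, with 1221 negative. The part of length in the subunit values was not tested. Of the 13 polymerase II subunit genes, 11 had positive log2 fold changes (median 0.12). All 13 ran from -0.18 for Polr2a, the largest subunit, to 0.37 for Polr2k (SE 0.41, overlapping groups). Polr2a was at 191 to 218 CPM in WT and 169 to 194 CPM in KO, and Polr2g, at 45.2 to 49.4 CPM in WT and 54.9 to 58.3 CPM in KO, was the 1 of these genes that DESeq2 called (adjusted p = 0.049, edgeR adjusted p = 0.167). The 29 tested general transcription factor genes had a median of 0.01. They ran from -0.71 (Ercc2, a TFIIH helicase, SE 0.24) to 0.38 (Taf7, a TFIID subunit, SE 0.14). Ercc2 had overlapping groups, at 11.6, 12.7 and 6.82 CPM in WT and 6.85, 5.96 and 6.19 CPM in KO (edgeR adjusted p = 0.226). Beside 49.7% negative over all tested genes, 15 of the 18 tested genes of pausing and elongation were negative (median -0.09). Their median exonic length was 3571 bp. They ran from -0.33 for Ccnt2, a cyclin of the elongation kinase P-TEFb that DESeq2 called (adjusted p = 0.0148, edgeR adjusted p = 0.149), to 0.13 for Nelfe. The 15 genes of cleavage and polyadenylation, which include the relatives of Ints9 and Ints11, had a median of 0.01. They ran from -0.44 (Cpsf4, SE 0.19, overlapping groups) to 0.21 (Nudt21, SE 0.07).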

How the data were processed

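Read counts per gene, whole and not normalized, were used as the authors deposited them. Tools named per the submitters' processing notes are HISAT2 2.1.0, HTSeq, CASAVA 1.8.2 and DESeq2, with mm9 as the build. The labels' protocols give total RNA and a TruSeq kit. Each of the 6 columns was matched to its sample by name. Dates stood in place of 24 symbols, which match no gene.

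Tests used edgeR 4.0.16 under R 4.3.3 (filterByExpr, TMM, quasi-likelihood F-test, Benjamini-Hochberg over 15915 genes), fitted on the whole table. DESeq2 1.42.0 and limma-voom (limma 3.58.1) were alternatives, beside another scaling, other filters, the replicate block, libraries left out, KO replicate 1 alone against WT, and offsets (mgcv 1.9.3) on exonic length and GC content. Lengths were those of the mm9 annotation GENCODE vM1, joined through symbols or unique synonyms for 14807 tested genes (93.0%) and 43 of 44 members.

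Members, lists, tests and alternatives were chosen with earlier results of these data known. Named with all values are, per complex, the 5 lowest and 5 highest fold changes, the kinase module and Med1, Med14, Med15, Ints1, Ints6, Ints9 and Ints11; further members named were chosen after their values were seen. Figures used Python 3.11.15 and matplotlib 3.10.9.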

Additional observations from a re-analysis of the deposited data

How the results depend on the processing

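The number of members called was 0 in either direction under all alternatives but DESeq2, which called 2 lower and 1 higher. Med1 (-0.47), Med13l (-0.46) and Med28 (0.26) thus passed in DESeq2 alone, and their adjusted p in edgeR or limma-voom was above 0.05 under each other alternative. The number of genes called over the whole table, 27 lower and 0 higher, was unsteady. It was 437 lower and 209 higher in DESeq2, 0 lower in limma-voom, 1 lower with length and GC offsets, and 125 lower and 7 higher at an adjusted p below 0.1. Setting KO replicate 1 by itself against WT, with that lone library assumed to vary like the others, it was 0 lower and 1 higher. Leaving out 1 library gave 0 to 80 lower and 0 to 9 higher. The highest counts came without WT replicate 3, without KO replicate 1 there were 4 lower and 1 higher, and there were 0 without each of the other 4 libraries. With the replicate block 0 genes and 0 members were called, and the medians were 0.00 for Mediator and -0.08 for Integrator; same-numbered WT and KO libraries had deviations that correlated at 0.183, 0.0576 and 0.0320, so the numbers were not taken to pair the samples. WT replicates 2 and 3 did not correlate best with their own number.

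The Mediator median ran from -0.0427 to 0.0402 when 1 library was left out and was -0.0466 with KO replicate 1 alone against WT. The Integrator median ran from -0.1355 to -0.0264, and their difference from -0.1757 to -0.0190. The threshold of an adjusted p below 0.1, counted among the 15 alternatives, keeps the main fold changes and so cannot change a sign. Of 24 named members 20 kept their sign under all 15 alternatives, 12 lower and 8 higher in KO. Of the other 4, Ints2 was 0.0608 with length and GC offsets and ran from -0.20 to 0.11 leaving out 1 library, and Ints10 was 0.17 in KO replicate 1 alone and ran from -0.18 to 0.0804. Med12 was 0.00267 with the offsets, and Med12l was 0.0420 with them and ran from -0.20 to 0.0368. The cause of these shifts was not tested. Members without exonic length (Med20) or with no counts (Med10) could not be fitted with the offsets. Precision was limited both by depth (Med18, with 82 to 105 counts per library, SE 0.19) and by spread between libraries (Ints1, with 796 to 1470 counts, SE 0.22).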
